A study of Mus musculus with 105 samples.

Results

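Tumours that formed in IKO mice were compared with tumours of wild-type (WT) mice across all 12966 measured genes. The IKO genotype is labelled Ikk KO. All mice had received diethylnitrosamine (DEN), a carcinogen that hepatocytes convert into a DNA-alkylating agent, and the tumours were taken at 8 months of age. The 8 libraries compared, 4 of IKO tumours and 4 of WT tumours, are those of sequencing group 1 with these labels, of 105 libraries in the series. They were set beside 4 libraries each of SKO tumours (labelled Shp2 KO), of IKO non-tumour liver and of WT non-tumour liver, all DEN-treated, at 8 months and from the same sequencing group. Liver of DEN-treated IKO and WT mice at 1, 3 and 5 months, 4 libraries for each genotype and age, completed a comparison over 4 non-tumour stages. WT tumours and WT non-tumour liver of sequencing group 2 (DEN, 8 months) served as separate libraries for the tumour change in WT. Non-tumour liver is labelled as normal liver of the same DEN-treated genotypes. The study's title places the gene losses in hepatocytes. The Cre driver, strain, sex, the IKK subunit deleted, and whether each library is 1 tumour or 1 animal are not given in the sources used here, so p-values measure the spread between these libraries.

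The IKK complex contains the kinases IKKα (Chuk) and IKKβ (Ikbkb) and the scaffold IKKγ (Ikbkg). It phosphorylates inhibitors of NF-κB and thereby releases this transcription factor to the nucleus after signals such as TNF and interleukin-1. Hepatocytes divide their metabolic work along the lobule. Pericentral cells near the central vein, where Wnt and β-catenin signalling is strong, make glutamine synthetase and several cytochrome P450 enzymes, and periportal cells carry out urea synthesis and gluconeogenesis. A further set of liver genes, among them the major urinary proteins (Mups), is expressed more in males than in females under the pulsatile release of growth hormone. Liver tumours commonly lose part of this adult programme.

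Reads over the listed genes numbered 4676444 to 7175222 per library in IKO tumours (median 5776775) and 5805949 to 8508815 in WT tumours (median 7154530). Libraries of sequencing group 1 held 4676444 to 10863046. Levels are normalised reads, the reads of a gene scaled to the depth of the library. Differences are log2 differences, IKO minus WT, on the deposited variance-stabilised scale, which understates the change of genes with few reads. They carry their SE and the Benjamini-Hochberg adjusted p over all genes from limma, fitted to all 60 libraries of sequencing group 1, whose 15 groups share the estimate of spread. Calls were made where that adjusted p was under 0.05. Each of the 28 pairs among the 8 tumour libraries differed by more than sampling noise, with a chi-square per gene of at least 11.7.

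Of the gene lists examined, male-biased, pericentral and bile acid genes had the largest shares of members higher in IKO tumours, 16 of 21, 11 of 24 and 8 of 20. Genes lower in IKO tumours included Papss1, Hddc3, Hmgcs1 and Gpc3. In all, 321 genes (2.48% of those tested) were higher and 146 (1.13%) were lower, 467 together (3.60%). At least a 2-fold difference was reached by 116 of the higher and 37 of the lower genes, and the median over all genes was −0.01. An unadjusted limma p below 0.05 was found for 2144 of the 12966 genes. The 4 IKO and 4 WT libraries did not overlap for 202 of the 321 higher genes and 87 of the 146 lower genes. Over all 12966 genes they did not overlap with IKO above for 4.14% and with IKO below for 3.13%. The count rested on the spread shared by 60 libraries. With the 8 tumour libraries fitted alone, 35 genes were called (23 higher, 12 lower, 0.270%), and 33 of them were also among the 467. The count in the larger fit was 191 without WT replicate 3, 261 without WT replicate 2, 232 without IKO replicate 4 and 252 without IKO replicate 1, and 126 genes were called whichever of the 8 libraries was left out.

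**Figure D1:**
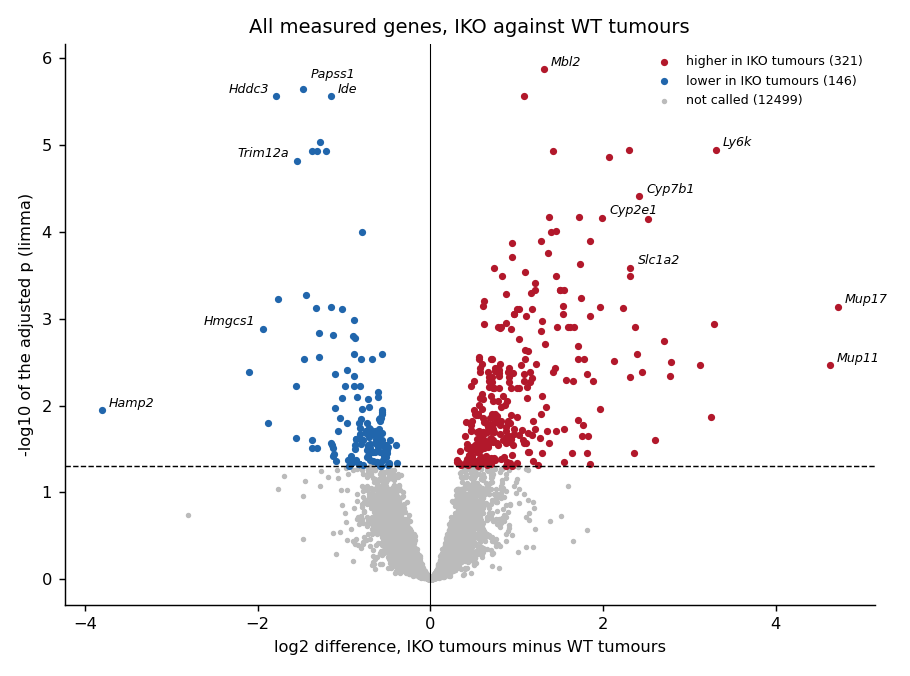
Log2 difference between IKO and WT tumours (x axis, positive is higher in IKO tumours) and −log10 of limma's adjusted p (y axis) for 12966 genes, with red for the 321 higher, blue for the 146 lower genes and a dashed line at an adjusted p of 0.05. The largest rises, to the right, include Mup17 at 4.72 and Mup11 at 4.63, and Hamp2 lies at −3.81.

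The targeted pathway was examined at the level of its own transcripts. Ikbkb (GRCm38 chr8:22659205-22706589) had 237.0, 309.1, 277.5 and 235.5 normalised reads in IKO tumours, against 297.6, 394.4, 328.6 and 354.6 in WT tumours. The ranges overlapped by 1 IKO and 1 WT library, and the difference of −0.35 ± 0.14 did not pass the test (adjusted p = 0.19). Over the 4 non-tumour stages Ikbkb was called lower in IKO than in WT liver (−0.32 ± 0.07, adjusted p = 0.00258). Chuk averaged 196.8 ± 36.76 in IKO and 161.4 ± 29.49 in WT tumours (SD, n = 4 each, difference 0.25 ± 0.14, adjusted p = 0.375). Ikbkg averaged 146.2 ± 20.58 in IKO and 160.8 ± 42.07 in WT tumours (difference −0.10 ± 0.19, adjusted p = 0.863). Because the assay counts transcript 3′ ends, loss of an internal exon need not lower the value. Other liver cells than hepatocytes also contribute Ikbkb transcripts, so these values do not check the labels.

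Pericentral and β-catenin target genes were higher in IKO tumours. Of 24 measured, 11 were higher and 0 lower, where 2.48% of all genes were higher, and their median difference was 0.67. Cyp2e1, the cytochrome P450 that activates DEN and metabolises ethanol, had 4677, 2574, 5333 and 7098 normalised reads in IKO tumours, against 1873, 724.8, 651.0 and 1923 in WT tumours. Every IKO library lay above every WT library (1.99 ± 0.32, adjusted p = 6.9e-05). In non-tumour liver Cyp2e1 was higher still, 8979 ± 716.6 in IKO and 8426 ± 1484 in WT (SD, n = 4 each). Glul, glutamine synthetase, had 3713, 2201, 2537 and 4512 normalised reads in IKO tumours, against 997.0, 482.5, 463.8 and 2227 in WT tumours. Here WT replicate 4 reached just above the lowest IKO library (1.85 ± 0.31, adjusted p = 0.000126). Slc1a2, a glutamate transporter of pericentral hepatocytes, averaged 538.5 ± 264.2 in IKO and 129.1 ± 131.5 in WT tumours (2.32 ± 0.41, adjusted p = 0.00026). Rgn, the lactonase of ascorbate synthesis, averaged 883.3 ± 198.7 in IKO and 322.8 ± 164.4 in WT tumours (1.45 ± 0.24, adjusted p = 9.62e-05).

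The other 7 called pericentral genes were Cyp2c37 (1.97), Cyp1a2 (1.97), Oat (1.77), Cyp27a1 (1.09), Tbx3 (0.97), Notum (0.84) and Gulo (0.70), given as log2 differences. Among members that did not pass were Axin2, a feedback inhibitor of Wnt signalling (0.03 ± 0.17, adjusted p = 0.962), and Lgr5, a receptor for R-spondins (0.25, adjusted p = 0.649). For all 11 called genes the mean of IKO tumours lay between that of WT tumours and that of IKO non-tumour liver, and for 8 the highest IKO tumour library was still below the lowest IKO non-tumour library. WT tumours were uneven. In 9 of these 11 genes WT replicates 2 and 3 both lay below WT replicates 1 and 4, an order found in 2977 of all 12966 genes. IKO replicate 2 was the lowest of its group in all 11. The count was 7 without WT replicate 3. In the fit of the 8 tumour libraries alone limma called 0 of the 24, with a lowest adjusted p of 0.0841. There 16 of the 24 had an unadjusted p below 0.05, beside 1658 of all 12966 genes. In the larger fit limma-voom on recovered reads called 11.

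**Figure D2:**
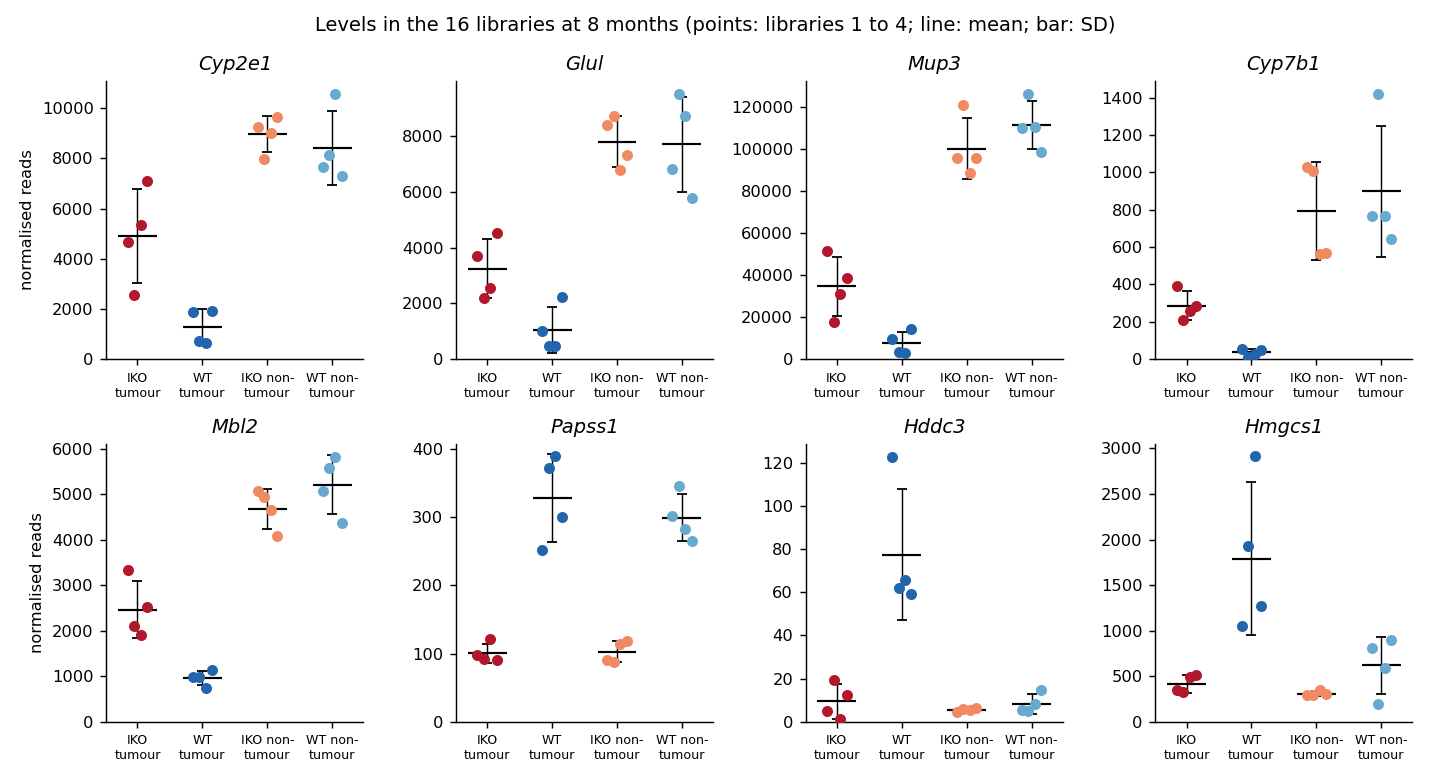
Normalised reads (y axis, from 0, a scale of its own in each panel) of 8 genes in IKO tumours, WT tumours, IKO non-tumour liver and WT non-tumour liver at 8 months, with points for the 4 libraries, a line for the mean and a bar for the SD. Cyp2e1, Glul, Mup3, Cyp7b1 and Mbl2 lie between WT tumours and non-tumour liver in IKO tumours, Papss1 is low in both IKO tissues, and Hddc3 is high in WT tumours alone of these 4 groups.

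Promoters of genes that differed are shown for the motifs of 3 signalling routes. These 4 called genes were chosen because their windows hold a match. The windows run from 250 bases before to 50 after 1 RefSeq start per gene on GRCm38.p6, 5′ to 3′ on the gene's strand. For Slc1a2 that start lies inside the gene, which spans chr2:102658239-102790784, so the window is not at its outermost start. Capitals mark the TCF/LEF motif CTTTGAT in Slc1a2 (chr2:102706188-102706487, plus strand), the STAT5 motif TTCNNNGAA in the bile acid importers Slc10a1 (chr12:80968656-80968955, minus strand) and Slco1b2 (chr6:141629268-141629567, plus strand), and the antioxidant response element TGACNNNGC in Ugdh (chr5:65435793-65436092, minus strand), each searched on both strands. In Slc1a2 and at the second place in Ugdh the motif lies on the opposite strand.
Slc1a2: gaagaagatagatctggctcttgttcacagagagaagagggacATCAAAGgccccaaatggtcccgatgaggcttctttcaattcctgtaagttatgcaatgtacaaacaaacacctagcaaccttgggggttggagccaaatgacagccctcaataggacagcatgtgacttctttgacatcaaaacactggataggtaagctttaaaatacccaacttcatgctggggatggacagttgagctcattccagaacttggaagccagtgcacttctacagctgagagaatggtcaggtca
Slc10a1: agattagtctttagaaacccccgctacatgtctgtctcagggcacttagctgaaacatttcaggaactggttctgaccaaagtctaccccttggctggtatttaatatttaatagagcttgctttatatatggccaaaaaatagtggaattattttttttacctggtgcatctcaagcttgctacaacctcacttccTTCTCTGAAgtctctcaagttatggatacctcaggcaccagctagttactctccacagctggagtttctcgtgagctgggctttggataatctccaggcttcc
Slco1b2: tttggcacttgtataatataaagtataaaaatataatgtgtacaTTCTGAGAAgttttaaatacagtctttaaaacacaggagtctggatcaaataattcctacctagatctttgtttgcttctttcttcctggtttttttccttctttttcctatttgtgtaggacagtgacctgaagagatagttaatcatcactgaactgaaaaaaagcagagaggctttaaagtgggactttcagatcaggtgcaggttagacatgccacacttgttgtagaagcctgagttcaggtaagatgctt
Ugdh: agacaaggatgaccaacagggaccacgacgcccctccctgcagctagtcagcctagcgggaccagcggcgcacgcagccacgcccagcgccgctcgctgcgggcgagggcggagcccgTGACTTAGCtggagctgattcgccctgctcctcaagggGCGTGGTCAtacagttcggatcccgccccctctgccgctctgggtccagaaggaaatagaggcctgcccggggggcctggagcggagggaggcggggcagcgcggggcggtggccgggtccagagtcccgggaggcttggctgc
The TCF/LEF motif stood in 1 of 7 matched promoters of called pericentral genes and in 4 of 16 of the whole list, and in 3.72% of all 27025 RefSeq promoters in the table. The STAT5 motif stood in 0 of 10 matched promoters of called male-biased genes and in 1 of 14 of the whole list. It stood in 2 of 5 of called bile acid genes and in 5 of 15 of that whole list, and in 8.47% of all promoters. The antioxidant response element stood in 9 of 23 matched promoters of NRF2 genes and in 12.5% of all promoters. Among the called NRF2 genes Ugdh held it, and Gpx2, Nqo1 and Slc7a11 did not. Over the 10181 measured genes with a promoter, these 3 motifs stood in 2.51%, 6.91% and 14.6%. A match describes these letters in this window only.

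Male-biased genes showed the largest differences. Of 21 measured, 16 were higher in IKO tumours and 0 lower, with a median of 2.36. Mup3, a secreted pheromone carrier, had 51330, 17630, 30910 and 38610 normalised reads in IKO tumours, against 9584, 3404, 2987 and 14190 in WT tumours. The groups did not overlap (2.40 ± 0.51, adjusted p = 0.00256), and the non-tumour livers held 100300 ± 14330 in IKO and 111400 ± 11350 in WT. Mup17 had 4307, 1590, 3919 and 1300 in IKO tumours, against 200.9, 18.02, 1.240 and 393.2 in WT tumours (4.72 ± 0.90, adjusted p = 0.000726). Mup11 (4.63), Mup7 (3.12), Mup21 (2.31) and Mup1 (2.46) were called as well. Mup genes are near-identical copies on chromosome 4, so the split of reads among single copies is uncertain, and Mup20 at 0.72 did not pass (adjusted p = 0.502).

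Male-biased genes outside the Mup family were called higher as well. Of the 21 members 1 lay below 0, at −0.58, with every IKO library below every WT library. Hsd3b5, a steroid-reducing enzyme of male liver, had 643.9, 442.3, 497.8 and 666.3 normalised reads in IKO tumours, against 90.50, 4.004, 12.40 and 117.0 in WT tumours (3.25 ± 0.82, adjusted p = 0.0136). Elovl3, a fatty acid elongase, averaged 352.9 ± 107.1 in IKO and 36.48 ± 30.35 in WT tumours (2.79 ± 0.60, adjusted p = 0.00311). Cyp7b1, which hydroxylates oxysterols in the alternative route of bile acid synthesis, averaged 284.8 ± 78.21 in IKO and 35.74 ± 20.42 in WT tumours (2.42 ± 0.38, adjusted p = 3.89e-05). Cyp4a12a, an arachidonate hydroxylase, differed by 2.78 ± 0.63 and Slco1a1, an organic anion importer, by 2.36 ± 0.68 (adjusted p = 0.00454 and 0.0347). The remaining called members were Cyp4a12b (2.61), Susd4 (1.81), Nudt7 (1.46), Cyp2u1 (1.25) and Cyp2d9 (1.19). In all 16 genes WT replicates 2 and 3 lay below WT replicates 1 and 4, and in 14 every IKO library lay above every WT library. The count was 8 without WT replicate 2 and 9 without WT replicate 3, and 3 with the 8 tumour libraries fitted alone. Female-biased genes had no called member of 15 in limma or limma-voom, 2 at an unadjusted p below 0.05 and a median of 0.00. Ghr, the growth hormone receptor, averaged 592.9 ± 150.3 in IKO and 377.8 ± 112.0 in WT tumours (0.62 ± 0.18, adjusted p = 0.0311). It was the only call of 16 growth hormone and IGF axis genes (6.25%, near the 3.60% over all genes). Their median was 0.02, with 9 above 0 and 7 below. Growth hormone and IGF axis genes had 0 calls without IKO replicate 1 or 4 or WT replicate 2 or 3, and 2 without IKO replicate 2.

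Bile acid genes were higher in 8 of 20 cases and lower in 0, with a median of 0.37. Besides Cyp7b1, Cyp27a1 and Slco1a1 they were Cyp7a1 (1.55, adjusted p = 0.0446), the rate-limiting enzyme of the classical pathway, Cyp8b1 (1.85, adjusted p = 0.0473), which sets the share of cholic acid, Slco1b2, Slc10a1 and the conjugating enzyme Baat (0.48, adjusted p = 0.0388). Slc10a1, the sodium-dependent bile acid importer, averaged 1741 ± 754.0 in IKO and 771.3 ± 86.69 in WT tumours (1.03 ± 0.28, adjusted p = 0.022). Slco1b2 averaged 696.5 ± 254.9 in IKO and 300.2 ± 101.9 in WT tumours (1.11 ± 0.22, adjusted p = 0.000923). The count was 3 without IKO replicate 1 or without IKO replicate 4, 4 without WT replicate 2 or 3, and 1 with the 8 tumour libraries fitted alone.

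Lists of other hepatocyte functions held fewer calls, where 3.60% of all genes were called. Mbl2, the mannose-binding lectin that starts the lectin pathway of complement, had 3341, 2100, 1906 and 2520 normalised reads in IKO tumours, against 984.8, 982.1, 749.0 and 1130 in WT tumours. The lowest IKO library was above the highest WT library, and its adjusted p was the smallest of all genes (1.32 ± 0.16, adjusted p = 1.34e-06). C6, a component of the membrane attack complex, averaged 967.7 ± 310.1 in IKO and 304.2 ± 101.4 in WT tumours (1.59 ± 0.32, adjusted p = 0.00124). With Mbl1 (0.79, adjusted p = 0.00891) they made 3 of 25 complement and coagulation genes higher. Of 21 periportal genes 3 were higher and 0 lower (median 0.25), namely Cyp2f2 (1.57), the urea cycle enzymes Ass1 (1.15) and Otc (0.84). Of 26 CAR and PXR xenobiotic genes 2 were higher, Cyp2c29 (2.38) and Cyp2c54 (1.88), and 3 were lower, Papss1 (−1.47), Cyp2a5 (−1.37) and the bilirubin transferase Ugt1a1 (−0.86). Cebpa, a transcription factor of mature hepatocytes, averaged 890.7 ± 156.3 in IKO and 535.3 ± 75.87 in WT tumours (0.70 ± 0.18, adjusted p = 0.0198). Hpd, an enzyme of tyrosine breakdown, was higher (1.33, adjusted p = 0.00192) and Apob, the structural protein of very low density lipoprotein, lower (−0.62, adjusted p = 0.0272). Fatty acid oxidation genes had 2 of 24 higher, the thiolase Acaa1b (1.29, adjusted p = 0.035) and Cpt2 (0.62, adjusted p = 0.0283), which acts on acylcarnitines inside mitochondria. The lipid droplet protein Plin5 (0.85, adjusted p = 0.039) was the only call among 25 lipogenesis genes, H2-Q6 (0.61, adjusted p = 0.025) among 19 MHC class I genes and the clock repressor Ciart (1.0, adjusted p = 0.0457) among 16 clock genes. Such single calls made up 4.0%, 5.263% and 6.25% of their lists, near the share over all genes. These counts depended on single libraries. Without IKO replicate 1 there were 0 periportal calls. Fatty acid oxidation had 0 without IKO replicate 1, 3 or 4 or WT replicate 2 or 3, and 4 without IKO replicate 2. The 5 xenobiotic calls became 2 without WT replicate 2 or 3 and 3 without IKO replicate 4, and the 3 complement calls 5 without WT replicate 1. Lipogenesis and clock genes had 0 without IKO replicate 1, 3 or 4 or WT replicate 2 or 3, while clock genes had 2 without WT replicate 1. MHC class I genes had 0 without IKO replicate 2 or 4 or WT replicate 2 or 3. With the 8 tumour libraries alone, periportal and fatty acid oxidation genes had 0 calls, xenobiotic genes 1 and complement genes 2. Alas2, the haem synthesis enzyme of red cell precursors, averaged 842.9 ± 249.5 in IKO and 230.3 ± 90.49 in WT tumours (1.77 ± 0.46, adjusted p = 0.0169).

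**Figure D3:**
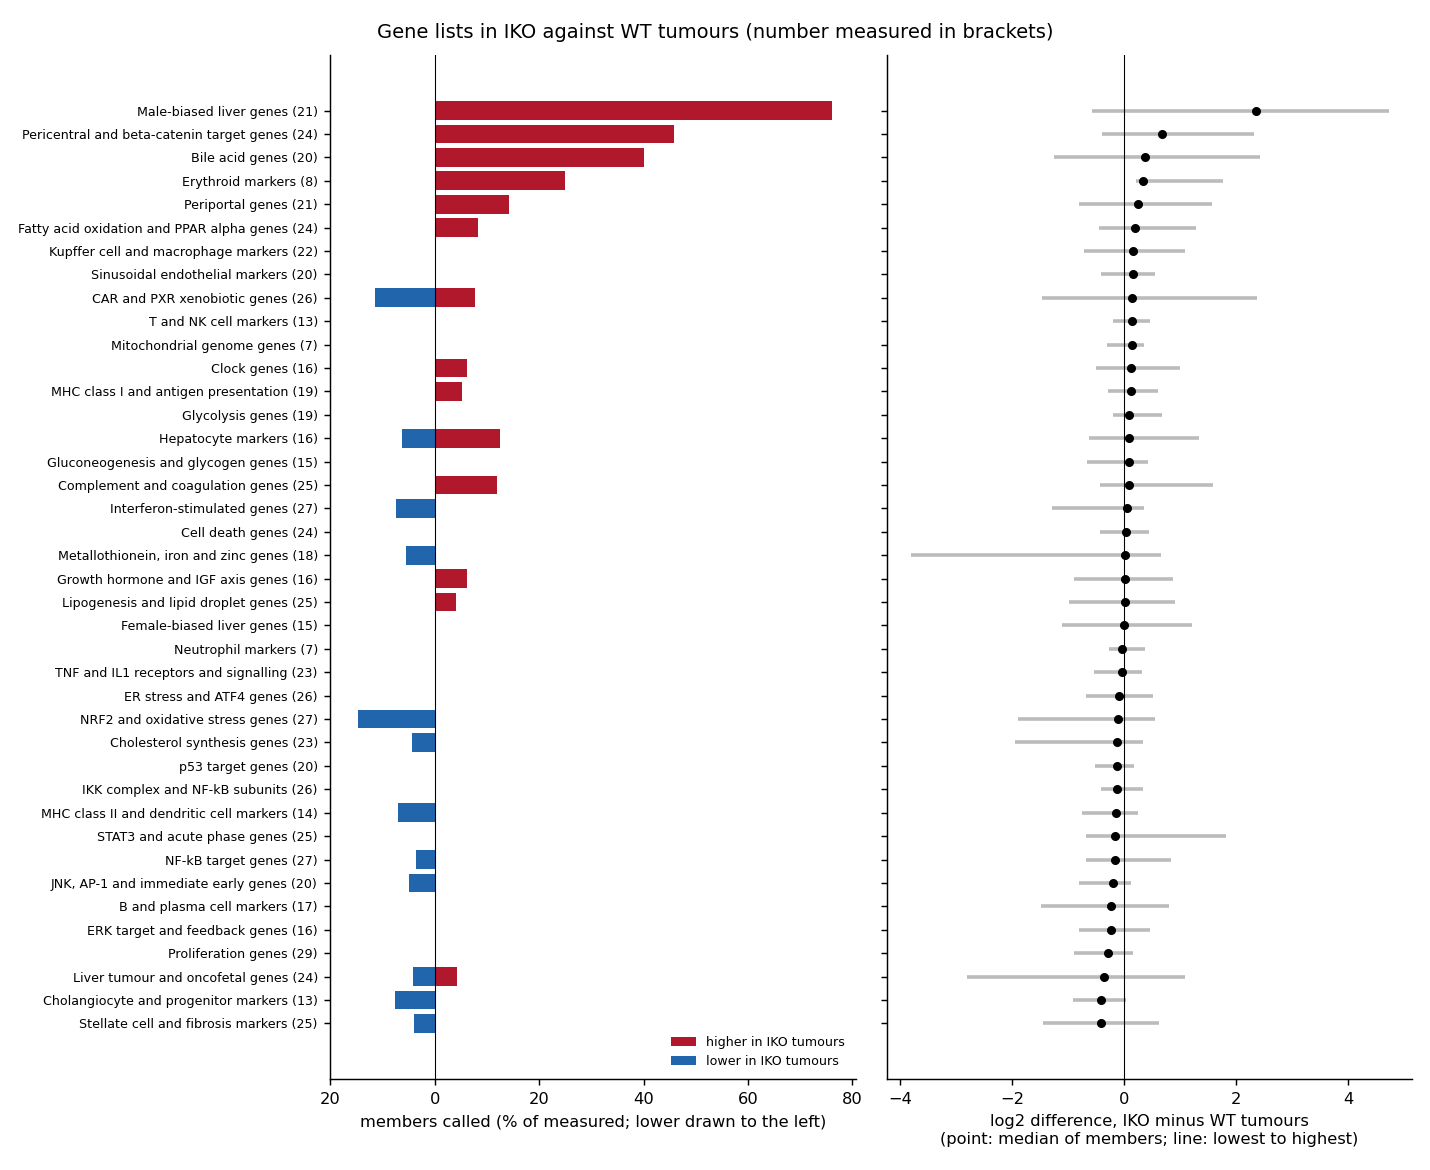
Left, members of each of 40 gene lists that were higher (red, to the right) or lower (blue, to the left) in IKO tumours, as a percentage of those measured, and right, the median (point) and range (line) of the members' log2 differences. Male-biased genes reach 76.19% higher and pericentral genes 45.83%, and NRF2 genes 14.81% lower.

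Of the genes lower in IKO than in WT tumours, Papss1 makes the sulfate donor PAPS. It had 97.70, 92.37, 121.1 and 90.31 normalised reads in IKO tumours, against 251.6, 372.4, 389.4 and 300.4 in WT tumours. The groups were far apart (−1.47 ± 0.19, adjusted p = 2.24e-06), also with the 8 tumour libraries fitted alone (adjusted p = 0.0115). Hddc3, a homologue of bacterial ppGpp hydrolases, had 4.805, 19.54, 1.360 and 12.20 in IKO tumours, against 122.7, 62.07, 65.72 and 59.11 in WT tumours (−1.78 ± 0.24, adjusted p = 2.73e-06). Hmgcs1, the cytosolic HMG-CoA synthase, averaged 418.8 ± 98.27 in IKO and 1791 ± 836.9 in WT tumours (−1.94 ± 0.39, adjusted p = 0.0013). It was the only called member of 23 cholesterol synthesis genes. Ide, the insulin-degrading enzyme, averaged 242.8 ± 29.89 in IKO and 588.6 ± 170.9 in WT tumours (−1.16 ± 0.16, adjusted p = 2.73e-06). Acp1, a low molecular weight phosphatase, averaged 8.817 ± 3.589 in IKO and 53.66 ± 16.63 in WT tumours (−1.37 ± 0.20, adjusted p = 1.16e-05). Papss1, Ide and Acp1 were also low in IKO non-tumour liver at 8 months (means 102.8, 305.2 and 9.825, against 299.1, 595.2 and 43.27 in WT). Over the 4 non-tumour stages limma called them lower as well (−1.35, −0.80 and −1.04, adjusted p = 5.5e-16, 5.1e-11 and 3.33e-11). Ide averaged 227.9 in SKO tumours.

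Trim12a was at 0 in all 4 IKO tumours, against 19.94, 18.02, 12.40 and 22.92 normalised reads in WT tumours (adjusted p = 1.51e-05), and it was also at 0 in all 4 IKO non-tumour livers. Its neighbours on chromosome 7, Trim30a (−0.88, adjusted p = 0.00104) and Trim30d (−1.29, adjusted p = 0.00146), were the 2 lower members of 27 interferon-stimulated genes, and no other member of that list was called. These genes have close paralogues, so the split of reads among them is uncertain. Cxcl14, a chemokine, averaged 21.19 ± 8.801 in IKO and 147.0 ± 166.7 in WT tumours (−1.55 ± 0.36, adjusted p = 0.00598), with WT replicate 1 at 394.2. Hamp2, a hepcidin gene and the only call of 18 metal genes, had 140.9, 19.54, 155.1 and 101.3 in IKO tumours, against 5971, 864.9, 125.2 and 8048 in WT tumours (−3.81 ± 0.94, adjusted p = 0.0113). The WT libraries ranged widely and replicate 3 overlapped the IKO range. In the opposite direction, Ly6k had 475.7, 465.4, 8.161 and 47.59 in IKO tumours, against 1.534, 0, 0 and 0 in WT tumours (adjusted p = 1.13e-05), so that it was high in only 2 of 4 IKO libraries.

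Liver tumour and oncofetal genes summed to 9551 to 13519 normalised reads in IKO and 15020 to 34441 in WT tumours, ranges that did not overlap. Of 24 measured, 1 was higher and 1 lower, with 8 at an unadjusted p below 0.05 and a median of −0.36. The 2 calls became 1 without IKO replicate 1 and 4 without WT replicate 1 or 4. Gpc3, an oncofetal proteoglycan, had 597.4, 97.70, 232.6 and 834.7 normalised reads in IKO tumours, against 1101, 846.9, 1056 and 1198 in WT tumours (−1.56 ± 0.42, adjusted p = 0.0235), and averaged 21.13 ± 21.50 in IKO and 11.44 ± 7.445 in WT non-tumour liver. Dlk1 was at 33.63, 7.106, 4.081 and 6.102 in IKO tumours, against 0, 0, 0 and 1.206 in WT tumours (adjusted p = 0.00524). No other of 24 liver tumour and oncofetal genes was called. Afp averaged 318.6 in IKO and 758.0 in WT tumours (adjusted p = 0.326), and H19 averaged 906.2 in IKO and 8361 in WT tumours (adjusted p = 0.182). NRF2 and oxidative stress genes were lower in 4 of 27 cases (14.81%, against 1.13% of all genes), with 13 at an unadjusted p below 0.05 and a median of −0.11. The count was 1 without IKO replicate 1, IKO replicate 4 or WT replicate 3, 2 without WT replicate 2, 7 without IKO replicate 2 and 0 with the 8 tumour libraries fitted alone. Nqo1, a quinone reductase, had 32.03, 81.71, 57.13 and 29.29 in IKO tumours, against 75.16, 276.3, 181.0 and 74.79 in WT tumours (−1.14 ± 0.32, adjusted p = 0.0287). Slc7a11, the cystine importer (−1.89 ± 0.48, adjusted p = 0.0159), Ugdh, UDP-glucose dehydrogenase (−0.90 ± 0.27, adjusted p = 0.0442), and the glutathione peroxidase Gpx2, at 0 to 3.203 in IKO and 3.068 to 64.07 in WT tumours (adjusted p = 0.00293), were the others. Proliferation genes had 0 of 29 called in limma and in limma-voom and 7 at an unadjusted p below 0.05, with 26 of 29 below 0 and a median of −0.29. Cyclin A2 (Ccna2) was lowest at −0.90 (adjusted p = 0.0547).

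Inflammatory and death pathways that IKK serves showed few calls, as lists of this size do where 3.60% of all genes were called. NF-κB target genes had 3.704% called. These counts do not set the pathways apart from other genes. Among 27 NF-κB target genes only Birc2, an inhibitor of apoptosis, was called, with 14.93 ± 4.274 in IKO and 30.94 ± 4.953 in WT tumours (−0.56 ± 0.14, adjusted p = 0.0113), and the median was −0.17. The summed level of these 27 genes was 4662 to 11749 in IKO and 5533 to 20480 in WT tumours. In limma and limma-voom 0 members were called of 26 IKK and NF-κB subunits (5 at an unadjusted p below 0.05), of 23 TNF and IL1 receptor genes (3), of 24 cell death genes (1), of 25 STAT3 and acute phase genes (5), of 16 ERK targets (4), of 20 p53 targets (2) and of 26 ER stress genes (4). Over all 12966 genes, 2144 had an unadjusted p below 0.05 in limma. Rela, the main activating NF-κB subunit, averaged 740.0 ± 59.98 in IKO and 666.6 ± 46.28 in WT tumours (0.14 ± 0.11, adjusted p = 0.549). Tnfrsf1a, the death-domain receptor of TNF, averaged 405.1 ± 67.33 in IKO and 428.5 ± 85.10 in WT tumours (−0.07 ± 0.14, adjusted p = 0.855). Klf6 was the only called member of 20 JNK and immediate early genes (−0.75 ± 0.20, adjusted p = 0.0198), a list with 0 calls without IKO replicate 1 or 4 or WT replicate 3 and 2 without IKO replicate 3. Glycolysis (19 measured, 2 at an unadjusted p below 0.05), gluconeogenesis (15 and 1) and mitochondrial genome genes (7 and 0) likewise had 0 called in both tools.

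In bulk tissue, fewer cells of a type and less RNA per cell cannot be told apart. Hepatocyte markers (16 measured, 2 higher, 1 lower) summed to 1285967 to 1626775 normalised reads in IKO and 1520139 to 1987937 in WT tumours. In non-tumour liver they summed to 482526 to 871573 in IKO and 349221 to 769094 in WT. Their presence in a library therefore does not show that it is tumour. Stellate cell and fibrosis markers summed to 3501 to 6267 in IKO and 6448 to 8198 in WT tumours, ranges that did not overlap. Of these 25 genes 1 was called lower, the collagen cross-linker Lox, at 0, 1.776, 0 and 0 in IKO and 1.534, 13.01, 13.64 and 10.86 in WT tumours (adjusted p = 0.00392), and 21 were below 0 with a median of −0.42. Col1a1, a fibrillar collagen, averaged 497.1 in IKO and 1393 in WT tumours (−1.45, adjusted p = 0.0745). Cholangiocyte and progenitor markers summed to 4757 to 9923 in IKO and 5594 to 12354 in WT tumours, with 1 of 13 lower, Krt7 (adjusted p = 0.0442). Macrophage markers summed to 4254 to 7247 in IKO and 3688 to 7272 in WT tumours, with 0 of 22 called by limma and limma-voom and 6 at an unadjusted p below 0.05. T and NK cell markers (151 to 203 in IKO, 94 to 156 in WT), neutrophil markers (12 to 23 and 17 to 30), B and plasma cell markers (2149 to 11169 and 1719 to 10924) and sinusoidal endothelial markers (3935 to 4794 and 3451 to 4522) had 0 called in both tools and 1, 0, 1 and 2 at an unadjusted p below 0.05. Among dendritic cell markers Cd209a was the only call of 14 (−0.75 ± 0.20, adjusted p = 0.0208). Erythroid markers summed to 4569 to 6344 in IKO and 3005 to 4159 in WT tumours, with Alas2 and Car1 (0.65, adjusted p = 0.0398) higher of 8. Of the measured markers of these 10 cell types, 0 were at 0 in all 4 IKO tumours and 0 in all 4 WT tumours. The counts of these marker lists moved with single libraries. Stellate cell markers had 2 calls without IKO replicate 2, 4 without IKO replicate 3 or WT replicate 1 and 3 without WT replicate 4. Hepatocyte markers had 1 without IKO replicate 3 or 4 or WT replicate 3, and 0 with the 8 tumour libraries alone. Erythroid markers had 0 without IKO replicate 1 or 4 or WT replicate 2 or 3 and 1 without IKO replicate 3. Cholangiocyte markers had 0 without IKO replicate 1, 2 or 4 or WT replicate 2 or 4, and dendritic cell markers 0 without IKO replicate 1 or WT replicate 4. The part of cell makeup in the differences above was not tested.

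The direction of the differences was set beside the change that tumours show in WT mice of sequencing group 2, libraries that entered no comparison of IKO with WT. There 1561 genes (12.04%) were lower and 1949 (15.03%) higher (27.1% in all) in tumours than in non-tumour liver. Of the 321 genes higher in IKO than in WT tumours, 236 (73.52%) were lower and 4 (1.246%) higher in those WT tumours, and the 236 made up 15.12% of the 1561. Of the 146 genes lower in IKO tumours, 56 (38.36%) were higher and 3 (2.055%) lower there, and the 56 made up 2.873% of the 1949. Over all 1561 tumour-lower genes the median difference of IKO from WT tumours was 0.26, and over the 1949 tumour-higher genes it was −0.15. Cyp2e1 changed by −2.88 (adjusted p = 0.00357), Mup3 by −3.81 (adjusted p = 0.000437), Mbl2 by −2.25 (adjusted p = 1.64e-06) and Gpc3 by 4.24 (adjusted p = 1e-08) in tumours of those WT mice. Tmc5 and Papss1 did not pass there (0.91, adjusted p = 0.233, and 0.27, adjusted p = 0.384).

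**Figure D4:**
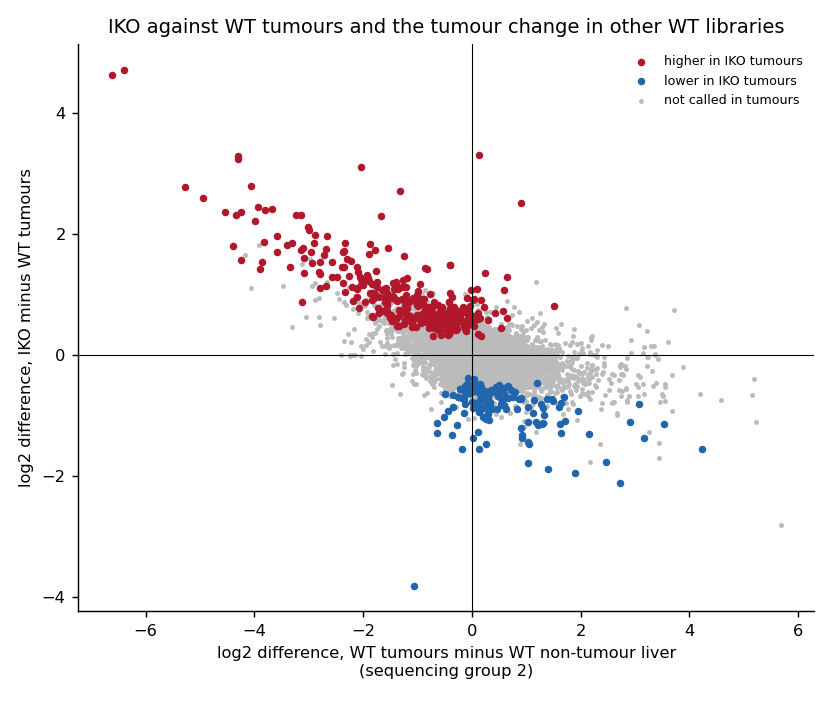
Log2 difference of WT tumours from WT non-tumour liver in sequencing group 2 (x axis) and of IKO from WT tumours in sequencing group 1 (y axis), 1 point per gene, red for the 321 higher and blue for the 146 lower genes. Of the red points 236 were called lower in the sequencing group 2 tumours, on the left of the plot.

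A second set of differences was present outside tumours as well. Over the 4 non-tumour stages (1, 3, 5 and 8 months) 502 genes (3.87%) were higher and 670 (5.17%) lower in IKO than in WT liver, 9.04% together. Of the 502, 50 were also higher in IKO tumours and 0 lower, and 420 had a tumour difference above 0 (median 0.19). Of the 670, 48 were also lower in IKO tumours and 1 higher, and 547 had a tumour difference below 0 (median −0.20). Seen from the tumours, 15.58% of the 321 higher genes were higher over the stages and 32.88% of the 146 lower genes were lower. Of 17 genes with at least a 2-fold difference over the stages, 12 were called in the same direction in tumours. Tmc5, a transmembrane channel-like gene, had 374.8, 428.1, 302.0 and 152.5 normalised reads in IKO tumours, against 200.9, 6.006, 16.12 and 18.09 in WT tumours (2.52 ± 0.41, adjusted p = 7e-05), where WT replicate 1 lay above the lowest IKO library. Cyb561, an electron carrier of vesicle membranes, averaged 71.01 ± 47.28 in IKO and 204.9 ± 76.24 in WT tumours (−1.32 ± 0.25, adjusted p = 0.000743). Nnt, the mitochondrial transhydrogenase, averaged 208.7 ± 51.66 in IKO and 111.0 ± 36.29 in WT tumours (0.79 ± 0.22, adjusted p = 0.0285). Gdpd3, Apoa4 and Camk1d differed over the stages and did not pass in tumours (adjusted p = 0.812, 0.732 and 0.38). At 8 months alone 10 genes (0.0771%) were higher and 16 (0.123%) lower in IKO than in WT non-tumour liver, 0.201% together.

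**Figure D5:**
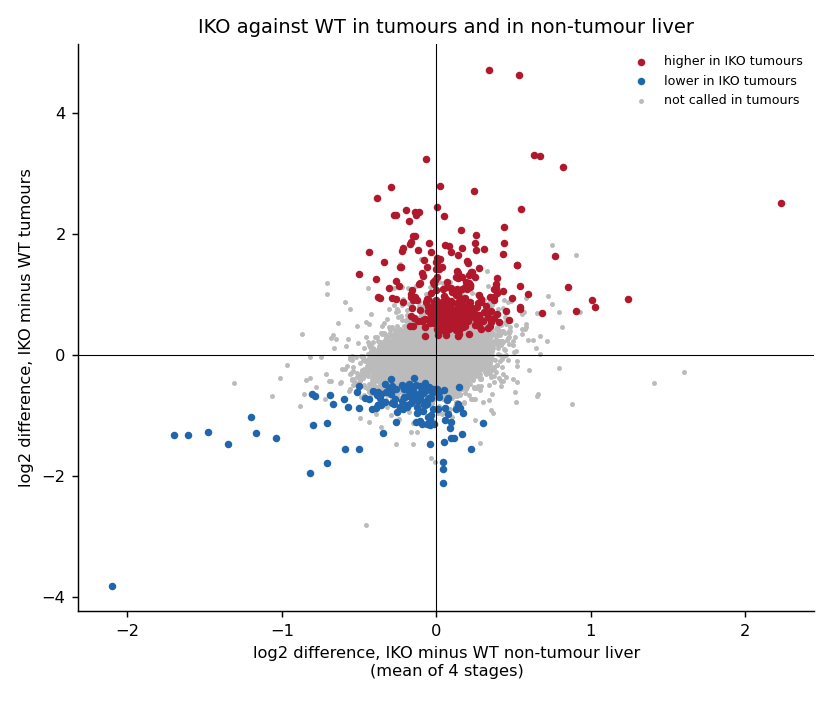
Mean log2 difference of IKO from WT non-tumour liver over 4 stages (x axis) and of IKO from WT tumours (y axis), 1 point per gene, red for the 321 higher and blue for the 146 lower genes in IKO tumours. Of the red points 50 were also called higher over the stages, and of the blue points 48 were called lower.

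Whether the tumour difference itself differed from that beside the tumour was tested as an interaction, the IKO effect in tumours minus the IKO effect in non-tumour liver at 8 months. It was called for 16 genes (0.123%), 14 above 0 (0.108%) and 2 below (0.0154%), and all 16 were also called in tumours, whose 8 libraries enter both tests. For Mbl2 the tumour effect was 1.32 and the non-tumour effect −0.15 (interaction 1.47, adjusted p = 0.000709). For Lhpp, a histidine phosphatase, they were 1.72 and −0.43 (interaction 2.15, adjusted p = 0.00747). For Cyp7b1 they were 2.42 and −0.17 (2.59, adjusted p = 0.027), and for Prodh, which starts proline breakdown, 2.07 and −0.03 (2.11, adjusted p = 0.027). Cyp2c67 (2.0, adjusted p = 0.024), Upp2 (1.90, adjusted p = 0.0322), Dipk1a (1.07, adjusted p = 0.0322), Slc1a2 (2.62, adjusted p = 0.0322) and Rgn (1.49, adjusted p = 0.0441) were likewise above 0, and Hddc3 was below 0 (−1.62, adjusted p = 0.0283). Cyp2e1 and Glul did not pass (both adjusted p = 0.0644). With the 16 libraries at 8 months fitted alone, Mbl2, Lhpp and Cyp7b1 passed (each adjusted p = 0.0323) and the other 7 called genes named here did not. The number over all genes was 3 without IKO tumour replicate 1, 4 without IKO tumour replicate 4 or without WT tumour replicate 3, 10 without WT tumour replicate 2, 50 without WT tumour replicate 1, 61 without WT tumour replicate 4 and 84 without IKO tumour replicate 2.

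IKO tumours were also compared with SKO tumours, a comparison that shares the 4 IKO libraries with the one above and holds no WT tumour. Here 482 genes (3.72%) were higher and 247 (1.90%) lower in IKO tumours, 5.62% together, and 444 in all were called without IKO replicate 4 and 400 without IKO replicate 1. With the 12 tumour libraries of the 3 genotypes fitted alone 250 were called. Male-biased genes were higher in IKO tumours in 15 of 21 cases (median 2.21) and pericentral genes in 10 of 24 (median 0.66). Bile acid genes were higher in 10 of 20 and lower in 1, and stellate cell markers were lower in 7 of 25. Cyp2e1 averaged 4920 ± 1869 in IKO and 1124 in SKO tumours (2.33, adjusted p = 1.37e-06), and Mup3 averaged 34620 ± 14110 in IKO and 1750 in SKO tumours (4.30, adjusted p = 4.42e-08). Ikbkb differed by −0.17 between them (adjusted p = 0.555) and Chuk by 0.71 (adjusted p = 0.000487). Chuk averaged 196.8 in IKO, 161.4 in WT and 111.0 in SKO tumours. The genes of smallest p were Adamts13 and Dnah2, lower in IKO tumours at 3.215 ± 1.594 and 2.031 ± 1.701 against 62.99 and 50.06 in SKO tumours (both adjusted p = 3.82e-10), and Mrps17, a mitochondrial ribosomal protein, at 404.4 ± 23.14 in IKO and 161.9 in SKO tumours (adjusted p = 2.82e-09). Adamts13, Dnah2 and Mrps17 were not among the 467 genes called between IKO and WT tumours. Hddc3 and Hmgcs1, low in IKO against WT tumours, did not pass against SKO tumours (−0.03, adjusted p = 0.96, and 0.01, adjusted p = 0.997).

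Genes were also counted by their distance from Ikbkb, which encodes a subunit of the IKK complex. Within 2 Mb of Ikbkb, 2 of 25 genes were called in tumours (8.0%), between 2 and 10 Mb 6 of 62 (9.677%), farther away on chromosome 8 20 of 623 (3.21%) and on other chromosomes 434 of 12188 (3.561%). The 2 within 2 Mb were Gpat4, an enzyme of glycerolipid synthesis (0.74 ± 0.19, adjusted p = 0.0202), and the kinase Nek3 (0.70 ± 0.21, adjusted p = 0.0473). Rnf170, a ubiquitin ligase 3.41 Mb away, had 12.81, 3.553, 10.88 and 15.86 normalised reads in IKO tumours, against 50.62, 37.04, 49.60 and 27.74 in WT tumours (−1.03 ± 0.20, adjusted p = 0.000772). Fut10, a fucosyltransferase 8.48 Mb away, averaged 21.29 ± 5.143 in IKO and 3.951 ± 2.585 in WT tumours (0.94 ± 0.23, adjusted p = 0.0126). Snord13, a small nucleolar RNA 8.44 Mb away, averaged 598.2 ± 189.9 in IKO and 211.7 ± 131.1 in WT tumours (1.5 ± 0.28, adjusted p = 0.000466). Rnf170 and Fut10 differed in the same direction over the non-tumour stages (−1.20, adjusted p = 1.51e-13, and 1.24, adjusted p = 1.47e-11). Over those stages 9 of 25 genes within 2 Mb (36.0%) and 14 of 62 between 2 and 10 Mb (22.58%) were called. Farther away on chromosome 8 it was 8.186% and on other chromosomes 8.943%. Called both in tumours and over the stages were 1 gene within 2 Mb and 5 between 2 and 10 Mb. The Snord13 values are identical to those of a predicted locus in the table, so its reads cannot be assigned to Snord13 alone.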

How the data were processed

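Transcripts of DEN-treated mouse livers were measured with MAPS libraries on the Illumina HiSeq2000, per the labels. MAPS is a multiplexed method that reads polyadenylated 3′ ends. The authors used STAR 2.7.10a, GRCm38/mm10, HTSeq 2.0.2 and DESeq2 1.32.0, per the submitters' processing notes. The deposited log2 matrix has a name that gives other units, but its values behave as a variance-stabilised log2 scale whose floor of 3.8289 stands for 0 reads. Inverting that scale returned whole reads, within 0.05, for 100.0% of values of up to 2000 reads. These reads gave depths, levels (normalised reads) and 1 alternative. Molecular identifiers were not used here, so counting error covers only part of the error. Of the columns, 0 were left without a sample.

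The 15 groups of sequencing group 1 (60 libraries) were fitted in R 4.3.3 with limma 3.58.1 on the deposited values, with 1 mean per group, moderation with a trend and Benjamini-Hochberg adjustment over 12966 genes. Median within-group SDs were 0.221 in IKO tumours, 0.242 in WT tumours and 0.246 in the 12 non-tumour groups. Sequencing group 2 was fitted on its own, a choice made after seeing the data. Symbols were matched to RefSeq positions (GRCm38.p6) for 12902 genes, and promoters come from RefSeq.

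The members, the 40 gene lists and the tests were chosen with earlier results of these data known. The rule for named genes took IKK subunits, the 14 largest rises and falls without overlap, up to 4 called members per list (up to 2 of highest level where none was called), up to 8 called genes within 10 Mb of Ikbkb, 8 genes of smallest interaction p, 6 of smallest p against SKO tumours, and 6 rises and 6 falls over the stages. Predicted genes were passed over. Further list members, such as those completing a list's calls, were named after their values were seen. Alternatives were the 8 tumour libraries alone, a replicate block, library weights, a filter on low values, quantile normalization, moderation without a trend or robust, leaving out each library and, added after seeing the data, limma-voom on the recovered reads and leaving out 2 libraries at 3 months that stand apart from their groups.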

Additional observations from a re-analysis of the deposited data

Results flagged for a closer look

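Among 248 sets of 4 tumour libraries of named genes, 12 had a library whose gap to the nearest of the others, divided by the range on the log2 scale, exceeded Dixon's 95% critical value, and chance flags about 1 set in 20. In IKO tumours these were Rgn, lowest in replicate 2 at 586.2 normalised reads (others 959.0 to 994.6), Igfbp1, highest in replicate 2 at 25470 (others 14620 to 15880), Mmp8, at 0.0 in replicate 4 (others 2.720 to 3.553), Sdc1, highest in replicate 4 at 854.2 (others 641.3 to 672.7), Lox, 1.776 in replicate 2 (others 0), and Mrps17, highest in replicate 2 at 438.8 (others 390.4 to 397.8). In WT tumours they were Ly6k, 1.534 in replicate 1 (others 0), Dlk1, 1.206 in replicate 4 (others 0), Hddc3, highest in replicate 1 at 122.7 (others 59.11 to 65.72), Cyb561, highest in replicate 1 at 319.0 (others 162.8 to 173.6), Lox, lowest in replicate 1 at 1.534 (others 10.86 to 13.64), and Ehd3, lowest in replicate 1 at 349.7 (others 670.7 to 731.0). For Ly6k and Dlk1 in WT tumours and Lox in IKO tumours the 3 other libraries were at 0 and the library named held 1 read, so that any single read would have been picked out.

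The IKO effect in tumours differed from that in non-tumour liver for 10 named genes by limma's interaction term. The differences of the effects were 2.59 for Cyp7b1, −1.62 for Hddc3, 1.47 for Mbl2, 2.15 for Lhpp, 2.0 for Cyp2c67, 2.11 for Prodh, 1.07 for Dipk1a, 1.90 for Upp2, 2.62 for Slc1a2 and 1.49 for Rgn. With the 16 libraries at 8 months fitted alone, Cyp7b1, Mbl2 and Lhpp kept their call and the other 7 did not.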

How the results depend on the processing

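With the 8 tumour libraries alone, the count of IKO against WT tumours was 35 instead of 467, pericentral genes 0 of 24, male-biased genes 3 and bile acid genes 1. Leaving out 1 library gave 191 to 580 genes in all, 7 to 12 pericentral, 8 to 16 male-biased and 3 to 11 bile acid genes, and robust moderation gave 5 bile acid genes. The interaction count of 16 ranged from 3 to 84 without 1 library, and was 30 without the 2 libraries at 3 months, 87 with library weights, 9 in the 16 libraries at 8 months and 10 with robust moderation. Against SKO tumours the 729 genes became 250 in the 12 tumour libraries and 400 to 936 without 1 library. At 8 months the 26 non-tumour calls became 16 after a filter on low values. Of 81 named genes called, 17 passed in the 8 libraries, 67 with limma-voom, 52 to 74 without 1 library and 77 to 81 with library weights, a filter, quantile normalization and the other moderations. No named difference changed sign under these alternatives. The causes were not tested.

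Replicate numbers did not pair the tumours. Same-number correlations of IKO and WT tumours were −0.17 to 0.07, and 1 of 4 libraries correlated best with its own number. With the replicate block in the 8 tumour libraries 69 genes were called, 7 pericentral, 9 male-biased and 4 bile acid genes, and 34 of the 81 named genes. The blocked interaction had 4 genes, with 0 of the 10 named interactions passing, and blocked IKO against SKO tumours 220. Between IKO tumours and IKO non-tumour liver same-number correlations were −0.05 to 0.28, and 3 of 4 libraries correlated best with their own number.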
